A study of Homo sapiens with 24 samples.

Results

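The 42 genes described here act in the G2 phase of the cell cycle and in mitosis. They were taken by symbol from a list of mitosis and G2/M genes, out of 27431 gene symbols in 3 genome-wide RNA-seq tables, and each of the 42 was found there. They fall by role into mitotic entry (8 genes), spindle (8), kinetochore (7), spindle checkpoint (5), chromosomal passenger complex (3), anaphase with the APC/C ubiquitin ligase (4) and cytokinesis (7). Their levels are the authors' pooled FPKM (fragments per kilobase of transcript, scaled to the mapped fragments), a unit that divides by transcript length.

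The study depleted the transcription factor TFAP2C, an AP-2 family member, in human breast carcinoma lines with amplified HER2, and sequenced 24 samples in 8 groups of 3. The groups used here were SKBR3 cells with TFAP2C siRNA (siAP2C) and SKBR3 cells with non-targeting siRNA number 2 (siNT), HCC1954 cells with the same siAP2C and HCC1954 cells with siNT, and HCC1954 clones with a stable lentiviral TFAP2C shRNA (shAP2C) and HCC1954 clones with a lentiviral negative control shRNA (shNT). Transfected cells were incubated for 72 to 96 h and all cells were between passage 5 and 10. The lines were not authenticated by the study's authors, per the labels, and the labels do not state if its 3 samples per group were grown as separate cultures. The spread behind the authors' tests may therefore be technical. How many clones carry each shRNA is not stated in the labels. Each table pools the 3 samples of a group, so no value per sample, no spread between samples and no read depth stands behind the levels below. A table for HCC1569 cells holds 68 genes and 0 of the 42, and was not used.

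In the cell cycle, cyclin A and cyclin B with CDK1 start mitosis once CDC25 phosphatases have removed the inhibitory phosphates, and PLK1 and the Aurora kinases carry the signal on. Kinetochores then join chromosomes to spindle microtubules, and the spindle checkpoint holds back CDC20 and the APC/C until all are joined. The APC/C destroys securin and cyclin B, separase cuts cohesin, and the midzone and contractile ring divide the cell. Most of these genes are transcribed late in the cycle through a promoter element called the cell cycle genes homology region (CHR), often beside CCAAT boxes bound by NF-Y. Because their RNA peaks in G2 and M, a lower level in bulk RNA can come from fewer cells in those phases or from less RNA per cell, and these data cannot tell them apart.

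Promoters of 5 genes that the results below turn on are shown here from RefSeq (GRCh38.p14), each from 250 bases before to 50 bases after the start site, on the strand of the gene. PRC1 is shown because it fell in all 3 comparisons, PLK1 for its raw difference between the lines, and CCNB1, CDC20 and ANLN because their change differed between the shRNA and the siRNA in HCC1954. Capitals mark TTTGAA, the letters of the CHR, on either strand and at any position, so a match need not be a working CHR. Capitals also mark the CCAAT box on either strand. The windows lie at chr15:90994486-90994785 (PRC1, minus strand), chr16:23678639-23678938 (PLK1, plus strand), chr5:69166900-69167199 (CCNB1, plus strand), chr1:43358731-43359030 (CDC20, plus strand) and chr7:36389612-36389911 (ANLN, plus strand).
PRC1: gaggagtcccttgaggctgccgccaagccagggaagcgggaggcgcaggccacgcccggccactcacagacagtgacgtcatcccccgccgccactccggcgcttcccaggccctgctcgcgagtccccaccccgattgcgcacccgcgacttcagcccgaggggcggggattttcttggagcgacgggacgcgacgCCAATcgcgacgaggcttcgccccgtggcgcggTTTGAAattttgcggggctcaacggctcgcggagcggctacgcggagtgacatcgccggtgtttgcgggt
PLK1: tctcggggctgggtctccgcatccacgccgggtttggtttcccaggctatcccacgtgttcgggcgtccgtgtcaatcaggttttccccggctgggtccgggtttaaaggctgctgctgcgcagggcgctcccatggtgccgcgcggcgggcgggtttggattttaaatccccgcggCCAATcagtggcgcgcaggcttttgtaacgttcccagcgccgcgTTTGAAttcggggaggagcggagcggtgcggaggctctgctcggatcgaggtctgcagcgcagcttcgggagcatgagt
CCNB1: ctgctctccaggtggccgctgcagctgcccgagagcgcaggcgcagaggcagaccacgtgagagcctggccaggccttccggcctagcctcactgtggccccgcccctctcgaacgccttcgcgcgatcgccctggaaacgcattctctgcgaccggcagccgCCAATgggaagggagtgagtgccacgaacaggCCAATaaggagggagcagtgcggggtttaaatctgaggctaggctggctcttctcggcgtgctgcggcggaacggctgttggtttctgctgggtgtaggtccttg
CDC20: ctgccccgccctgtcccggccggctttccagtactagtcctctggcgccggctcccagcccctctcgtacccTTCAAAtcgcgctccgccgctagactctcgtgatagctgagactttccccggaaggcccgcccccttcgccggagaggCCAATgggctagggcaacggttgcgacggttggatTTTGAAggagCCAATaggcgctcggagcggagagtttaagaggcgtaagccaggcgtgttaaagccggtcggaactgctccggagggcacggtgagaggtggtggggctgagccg
ANLN: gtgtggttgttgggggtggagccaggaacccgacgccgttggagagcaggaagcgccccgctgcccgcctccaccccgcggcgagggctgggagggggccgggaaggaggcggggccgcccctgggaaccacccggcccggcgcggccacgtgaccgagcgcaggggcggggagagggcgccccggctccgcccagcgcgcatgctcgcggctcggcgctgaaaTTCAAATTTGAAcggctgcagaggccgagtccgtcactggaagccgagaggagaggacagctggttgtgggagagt

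PRC1, PLK1 and CDC20 carry both motifs, CCNB1 holds CCAAT boxes with no TTTGAA in this window, and ANLN holds adjoining TTCAAA and TTTGAA with no CCAAT. The TTTGAA of PRC1 starts 20 bases before the start site and its CCAAT 53 bases before it, while in PLK1 they start 29 and 73 bases before it. RefSeq promoters were found for 34 of the 42 genes. TTTGAA, searched on both strands, stood in 24 of the 34 (70.6%), against 18.2% of 27305 genes with a promoter, and CCAAT in 27 (79.4%), against 39.7%. Both stood together in 20 of the 34 (58.8%), against 7.26% of all genes. The variant TTCGAA stood in 3 of the 34 (8.82%), against 1.82%. The AP-2 motif GCCNNNGGC stood in 8 (23.5%), close to the 26.6% of all genes. A motif match describes these letters only.

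TFAP2C itself had 53.9 FPKM with siAP2C and 157 FPKM with siNT in SKBR3, 22.0 FPKM with siAP2C and 92.4 FPKM with siNT in HCC1954, and 3.46 FPKM in shAP2C clones against 81.0 FPKM in shNT clones. The shRNA clones differed from their control far beyond this gene: across 17544 genes, summed FPKM of knockdown and control correlated with a Spearman rho of 0.833 there, against 0.991 for siRNA in HCC1954 and 0.979 in SKBR3. That is below the rho between the 2 lines, 0.851 for siNT of SKBR3 and siNT of HCC1954 and 0.859 for siNT of SKBR3 and shNT of HCC1954, while shNT and siNT of HCC1954 had 0.923. Markers differed as well. KRT7 was listed at 0.550 FPKM in shAP2C clones and 639 FPKM in shNT clones, and KRT19 at 634 FPKM in shAP2C clones and 19.9 FPKM in shNT clones. CDH1 was listed at 20.7 FPKM in shAP2C clones and 149 FPKM in shNT clones, and ERBB2 at 20.8 FPKM in shAP2C clones and 1525 FPKM in shNT clones. Over the 7 breast epithelial markers, 5 fell and 2 rose in the shRNA clones. Every ratio between shRNA groups below is thus a ratio between cells that differ this much, and whether the shAP2C clones descend from the same cells as the shNT clones was not tested. In SKBR3, 2 of the 6 markers tested fell and 1 rose: KRT19 (1297 FPKM with siAP2C, 2135 FPKM with siNT) and ERBB2 (609 FPKM with siAP2C, 1109 FPKM with siNT) fell, and EPCAM (139 FPKM with siAP2C, 105 FPKM with siNT) rose. In HCC1954 siRNA only KRT19 was called among the 7, at 4.01 FPKM with siAP2C and 7.51 FPKM with siNT, a fall. In SKBR3 CDH1 stood near 0 (0.0970 FPKM with siAP2C, 0.0894 FPKM with siNT), so 1 of the markers of its labelled type was absent. The 5 markers of leukocytes and fibroblasts had no completed test in any table. The highest of them was COL1A1, at 1.95 FPKM with siAP2C and 1.33 FPKM with siNT in HCC1954 and 1.69 FPKM in shAP2C clones against 0.283 FPKM in shNT clones, and PTPRC, CD3E, COL3A1 and PDGFRB were at or near 0, while the endothelial marker PECAM1 fell in both HCC1954 tables, with 18.5 FPKM with siAP2C and 27.0 FPKM with siNT and with 0.0180 FPKM in shAP2C clones against 11.6 FPKM in shNT clones. The part of these shifts in the results on mitosis genes was not tested. The gene CDKN1A, which encodes the CDK inhibitor p21, had 45.7 FPKM with siAP2C and 15.7 FPKM with siNT in HCC1954 and rose (q = 0.00425 in the authors' deposited table), and also rose in the shRNA clones (96.1 FPKM with shAP2C, 40.6 FPKM with shNT). In SKBR3 it had 5.11 FPKM with siAP2C and 6.27 FPKM with siNT (q = 0.405 in the authors' deposited table).

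In SKBR3, mitosis genes of every role were lower with siAP2C. A gene was called where its most expressed RefSeq transcript, here the lead transcript, had q under 0.05 in the authors' deposited table. Of the 41 genes whose lead transcript was tested, 33 fell and 0 rose, while 21.0% of the 9903 genes tested fell and 12.3% rose. At an unadjusted p under 0.05 in that table, produced with Cuffdiff, 34 were lower and 0 higher, against 27.5% and 16.1% of all genes tested. The p-values in that table were smaller than its test statistic gives under a normal distribution. Among the 33 falls the statistic was -4.79 for CDC25B but -1.62 for CDCA8 and UBE2C. The FPKM summed over all transcripts of a gene was lower in 42 of 42, as it was in 59.7% of all genes tested. The median log2 ratio of siAP2C over siNT was -0.64, against -0.09 over all genes, and ranged from -1.20 for CDC25B to -0.14 for KIF23. The genes not called were FOXM1, NUSAP1, HMMR, NDC80, CENPA, BUB3, TTK and KIF23, and the lead transcript of CDC25C was not tested.

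In HCC1954 the same siRNA comparison gave small ratios. Only PRC1, which bundles antiparallel microtubules at the spindle midzone, fell among 41 genes tested, and 0 rose, while 0.965% of 10773 genes fell and 2.31% rose. At an unadjusted p under 0.05 with Cuffdiff, 7 genes were lower (CCNB2, CDK1, ASPM, SPC25, CENPF, PTTG1 and PRC1) and BUB3 was higher, against 5.24% of all genes lower and 8.12% higher. Summed FPKM was lower in 39 of 42, as in 51.2% of all genes tested, and NDC80, BUB3 and ESPL1 were higher. The median log2 ratio was -0.21, against -0.01 over all genes, with a range of -0.60 (CDC25C) to 0.21 (BUB3). The median standard error of the lead transcript's log2 ratio was 0.41 here and 0.27 in SKBR3. Standard errors were derived from the log2 ratio and the test statistic in the authors' deposited table.

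Among the stable HCC1954 clones, the genes split. In shAP2C clones 14 of the 42 fell, 18 rose and 10 were not called, while 39.2% of 9564 genes fell and 36.3% rose, so these shares lie near those of all genes. The median log2 ratio was 0.08, against -0.03 over all genes. The range was far wider than with siRNA. It ran from -2.10 for AURKA and -2.05 for ANLN to 1.26 for CCNB1, with a standard deviation over the 42 genes of 0.76, against 0.17 for siRNA in HCC1954 and 0.22 in SKBR3. Calls over all genes were also more frequent in the clones than with siRNA in HCC1954 (0.965% fell, 2.31% rose) or SKBR3 (21.0% fell, 12.3% rose). The wider range is thus not shown to be particular to the 42. Scaling the shRNA groups to an equal upper quartile, which differed by -0.13 on the log2 scale, moved the median of the 42 to 0.20. For 6 of the 32 calls (CDK1, CDC25C, NUSAP1, CENPF, KIF2C and PRC1) the log2 ratio lay within 1 standard error of 0, since p-values in the authors' deposited table were smaller than its statistic gives under a normal distribution.

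**Figure D1:**
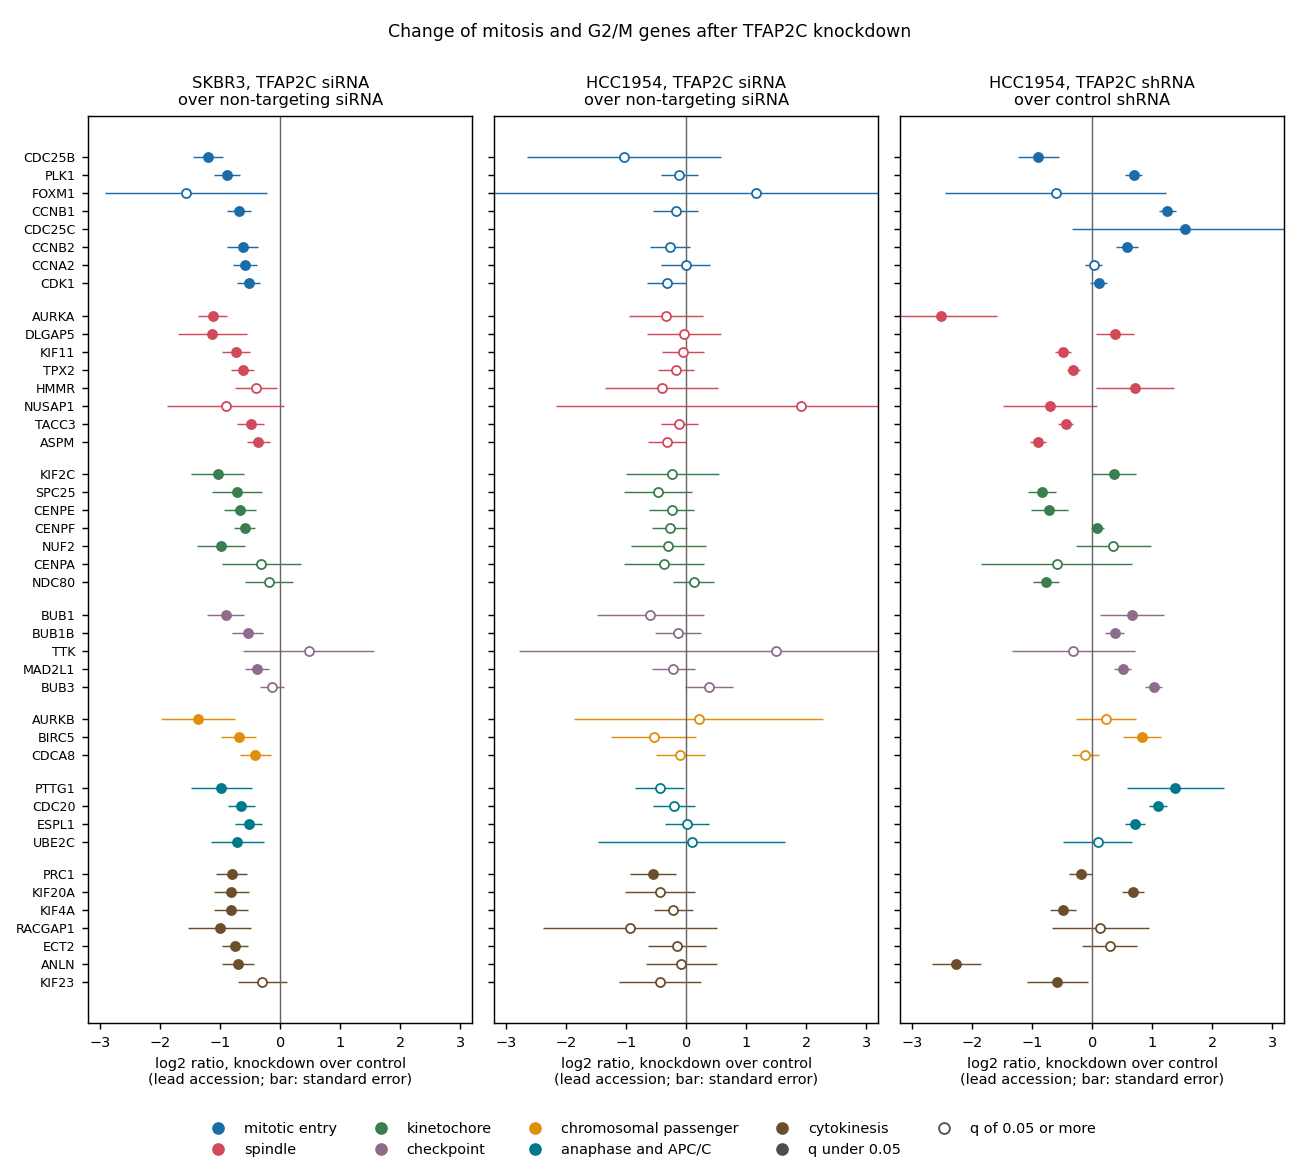
Log2 ratio of the lead transcript (x axis, knockdown over control) for each mitosis gene (rows, coloured by role) in SKBR3 siRNA, HCC1954 siRNA and HCC1954 shRNA; bars are standard errors, cut at the panel edge where longer, and filled points have q under 0.05. Filled points lie left of 0 in SKBR3, PRC1 alone is filled in HCC1954 siRNA, and 14 filled points lie left and 18 right of 0 in HCC1954 shRNA.

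**Figure D2:**
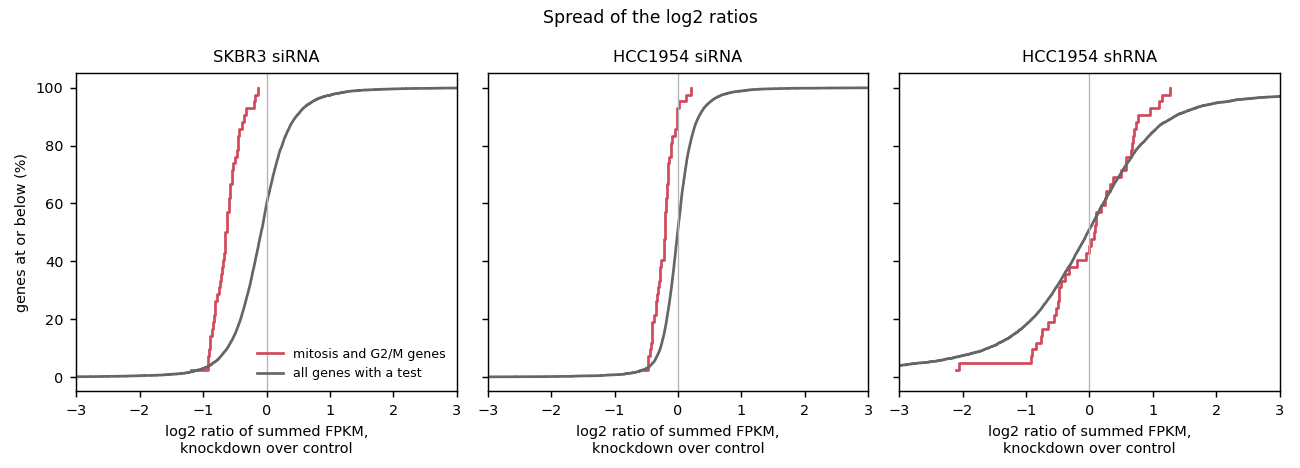
Share of genes (y axis, percent) at or below each log2 ratio of summed FPKM (x axis) for the 42 mitosis genes and for all genes with a test. The curve of mitosis genes lies left of 0 in SKBR3 with a median of -0.64, nearer 0 in HCC1954 siRNA with a median of -0.21, and along the curve of all genes in HCC1954 shRNA with a median of 0.08.

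Mitotic entry genes fell in SKBR3 and included both B cyclins and PLK1 among the rises in the shRNA clones. In SKBR3, 6 of 7 tested fell, in HCC1954 siRNA 0 of 7 were called (CCNB2 and CDK1 were lower at an unadjusted p under 0.05, by Cuffdiff), and in the shRNA clones 1 fell and 5 rose of 8. At q under 0.01, 3 of the 5 rises held, without CDK1 and CDC25C. Counts by role in the shRNA clones, here and below, stand beside the 39.2% of all genes that fell and 36.3% that rose, and were not tested against those shares. CCNB1, the mitotic B-type cyclin, had 26.8 FPKM with siAP2C and 43.7 FPKM with siNT in SKBR3. In HCC1954 it had 43.4 FPKM with siAP2C and 52.1 FPKM with siNT, and it reached 176 FPKM in shAP2C clones, against 73.4 FPKM in shNT clones. The log2 ratio of its lead transcript was -0.69 ± 0.21 (standard error) in SKBR3, -0.17 ± 0.37 in HCC1954 siRNA and 1.25 ± 0.14 in the shRNA clones, so it fell in the first and rose in the last. CCNB2, the related cyclin B2, had 12.9 FPKM with siAP2C and 19.8 FPKM with siNT in SKBR3, 32.3 FPKM with siAP2C and 39.2 FPKM with siNT in HCC1954, and 57.7 FPKM in shAP2C clones against 38.6 FPKM in shNT clones. Like CCNB1, it fell in SKBR3 (1.54-fold) and rose in the shRNA clones (1.50-fold). PLK1, the kinase that promotes entry and spindle assembly, had 18.1 FPKM with siAP2C and 33.4 FPKM with siNT in SKBR3. In HCC1954 it had 45.6 FPKM with siAP2C and 49.3 FPKM with siNT, and 88.1 FPKM in shAP2C clones against 54.7 FPKM in shNT clones. PLK1 thus fell 1.85-fold in SKBR3 and rose 1.61-fold in the shRNA clones.

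CDC25B, a phosphatase that activates CDK1 in G2, was the member with the lowest ratio in SKBR3, at 49.0 FPKM with siAP2C and 112 FPKM with siNT. It fell 2.29-fold there and 1.89-fold in the shRNA clones (73.5 FPKM with shAP2C, 139 FPKM with shNT), and had 98.3 FPKM with siAP2C and 110.1 FPKM with siNT in HCC1954. CDK1, the kinase itself, had 80.5 FPKM with siAP2C and 110.3 FPKM with siNT in SKBR3 and fell. With siRNA in HCC1954 it had 30.7 FPKM with siAP2C and 38.6 FPKM with siNT. In shAP2C clones CDK1 had 117 FPKM, against 109 FPKM in shNT clones, a called rise of 1.08-fold. CCNA2, cyclin A2, fell 1.49-fold in SKBR3 (28.9 FPKM with siAP2C, 43.1 FPKM with siNT) and was not called in HCC1954, with 14.2 FPKM with siAP2C, 14.3 FPKM with siNT, 77.0 FPKM with shAP2C and 75.8 FPKM with shNT. CDC25C, a further phosphatase of the family, was low, at 2.59 FPKM with siAP2C and 4.08 FPKM with siNT in SKBR3 and 5.49 FPKM with siAP2C and 8.32 FPKM with siNT in HCC1954. It rose in the shRNA clones (12.6 FPKM with shAP2C, 8.06 FPKM with shNT). FOXM1, a transcription factor of G2/M genes, had 29.4 FPKM with siAP2C and 53.7 FPKM with siNT in SKBR3, 40.0 FPKM with siAP2C and 45.4 FPKM with siNT in HCC1954, and 65.4 FPKM in shAP2C clones against 103 FPKM in shNT clones. FOXM1 was not called in any comparison, and its lead transcript had a standard error of 1.35 in SKBR3. Another FOXM1 transcript fell in the shRNA clones, with 1.13 FPKM with shAP2C and 6.45 FPKM with shNT (q = 0.00677 in the authors' deposited table).

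**Figure D3:**
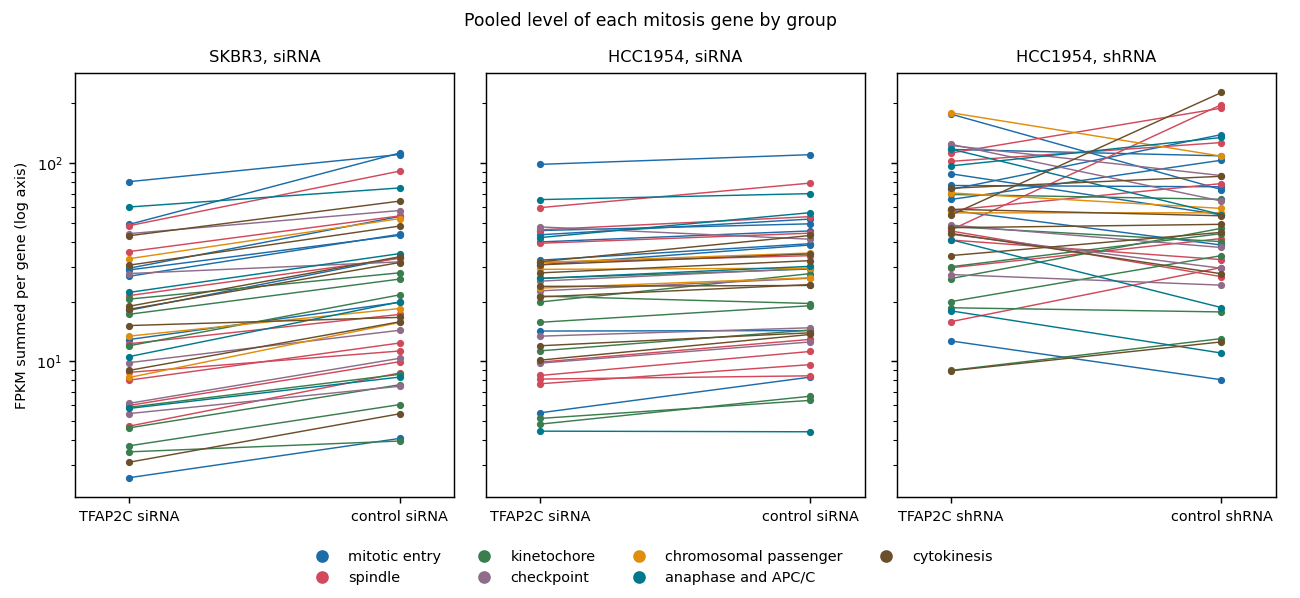
Summed FPKM of each mitosis gene (y axis, log scale) in the knockdown group (left point) and control group (right point) of each comparison, coloured by role; a line joins the 2 pooled values of a gene. Lines rise towards the control in SKBR3 for 42 of 42 genes, are nearly flat in HCC1954 siRNA, and cross in HCC1954 shRNA.

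Spindle genes fell in SKBR3 and most of them fell in the shRNA clones. In SKBR3, 6 of 8 fell, and in the shRNA clones 6 fell and 2 rose, with a median log2 ratio of -0.62 and -0.47. In HCC1954 siRNA 0 of 8 were called (ASPM was lower at an unadjusted p under 0.05, by Cuffdiff), with a median of -0.27. AURKA, the kinase of centrosome maturation and spindle assembly, had 48.2 FPKM with siAP2C and 90.9 FPKM with siNT in SKBR3, and 59.5 FPKM with siAP2C and 79.1 FPKM with siNT in HCC1954. In shAP2C clones it had 46.0 FPKM, against 197 FPKM in shNT clones, and fell 4.28-fold. TPX2, which activates AURKA on spindle microtubules, fell 1.54-fold in SKBR3 (21.4 FPKM with siAP2C, 33.0 FPKM with siNT) and 1.24-fold in the shRNA clones (102 FPKM with shAP2C, 127 FPKM with shNT). KIF11, the motor that separates spindle poles, fell 1.66-fold in SKBR3 (5.99 FPKM with siAP2C, 9.94 FPKM with siNT) and 1.40-fold in the shRNA clones (29.6 FPKM with shAP2C, 41.6 FPKM with shNT). With siRNA in HCC1954, TPX2 had 39.4 FPKM with siAP2C and 44.2 FPKM with siNT, and KIF11 had 8.13 FPKM with siAP2C and 8.44 FPKM with siNT. AURKA, TPX2 and KIF11 thus fell with siRNA in SKBR3 and with shRNA in HCC1954.

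ASPM, a spindle pole protein, fell 1.28-fold in SKBR3 (8.79 FPKM with siAP2C, 11.3 FPKM with siNT) and 1.87-fold in the shRNA clones (15.8 FPKM with shAP2C, 29.7 FPKM with shNT). TACC3, which stabilises kinetochore fibres, fell 1.41-fold in SKBR3 (12.2 FPKM with siAP2C, 17.2 FPKM with siNT) and 1.36-fold in the shRNA clones (57.8 FPKM with shAP2C, 78.7 FPKM with shNT). In HCC1954, ASPM had 7.70 FPKM with siAP2C and 9.61 FPKM with siNT, and TACC3 had 31.5 FPKM with siAP2C and 34.1 FPKM with siNT. The exceptions among spindle genes were DLGAP5 and HMMR, both microtubule-associated, which rose in the shRNA clones. DLGAP5 fell 1.85-fold in SKBR3 (4.71 FPKM with siAP2C, 8.73 FPKM with siNT) and rose 1.25-fold in the shRNA clones (40.8 FPKM with shAP2C, 32.5 FPKM with shNT). HMMR rose 1.70-fold in the shRNA clones (45.3 FPKM with shAP2C, 26.7 FPKM with shNT) and had 8.03 FPKM with siAP2C and 12.3 FPKM with siNT in SKBR3 without a call (q = 0.0792 in the authors' deposited table). Another HMMR transcript fell in SKBR3, with 2.13 FPKM with siAP2C and 4.57 FPKM with siNT (q = 0.000823 in the authors' deposited table). NUSAP1, a spindle-associated microtubule binder, had 35.7 FPKM with siAP2C and 54.0 FPKM with siNT in SKBR3 without a call, and fell 1.68-fold in the shRNA clones (112 FPKM with shAP2C, 189 FPKM with shNT). Another NUSAP1 transcript fell in SKBR3, with 12.9 FPKM with siAP2C and 18.6 FPKM with siNT (q = 0.0164 in the authors' deposited table). With siRNA in HCC1954, DLGAP5 had 9.90 FPKM with siAP2C and 12.9 FPKM with siNT, HMMR 8.48 FPKM with siAP2C and 11.2 FPKM with siNT, and NUSAP1 46.0 FPKM with siAP2C and 53.6 FPKM with siNT.

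In SKBR3 5 of 7 kinetochore genes fell with a median log2 ratio of -0.59. In the shRNA clones 3 fell, 2 rose and 2 were not called, near the shares of all genes, with a median of -0.53, and in HCC1954 siRNA 0 of 7 were called (SPC25 and CENPF were lower at an unadjusted p under 0.05, by Cuffdiff), with a median of -0.30. The NDC80 complex binds microtubules, and 3 of its subunits are members. NDC80 had 3.49 FPKM with siAP2C and 3.96 FPKM with siNT in SKBR3, not called, and 21.3 FPKM with siAP2C and 19.5 FPKM with siNT in HCC1954, while in the shRNA clones it fell 1.71-fold (20.0 FPKM with shAP2C, 34.1 FPKM with shNT). NUF2 fell 1.47-fold in SKBR3 (5.86 FPKM with siAP2C, 8.59 FPKM with siNT) and was not called in the shRNA clones (18.6 FPKM with shAP2C, 17.7 FPKM with shNT). SPC25 fell 1.65-fold in SKBR3 (4.61 FPKM with siAP2C, 7.61 FPKM with siNT) and 1.79-fold in the shRNA clones (26.1 FPKM with shAP2C, 46.8 FPKM with shNT). NDC80 was thus the subunit without a call in SKBR3, and NUF2 the subunit without one in the shRNA clones. With siRNA in HCC1954, NUF2 had 11.3 FPKM with siAP2C and 14.4 FPKM with siNT, and SPC25 had 4.82 FPKM with siAP2C and 6.66 FPKM with siNT.

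CENPE, the kinesin of chromosome congression, fell 1.61-fold in SKBR3 (3.74 FPKM with siAP2C, 6.04 FPKM with siNT) and 1.45-fold in the shRNA clones (8.99 FPKM with shAP2C, 13.0 FPKM with shNT). CENPF, a protein of the outer kinetochore, fell 1.50-fold in SKBR3 (17.2 FPKM with siAP2C, 25.9 FPKM with siNT), and its called rise in the shRNA clones was 1.06-fold (69.4 FPKM with shAP2C, 65.6 FPKM with shNT). KIF2C, the depolymerising kinesin that corrects attachments, fell 1.80-fold in SKBR3 (12.0 FPKM with siAP2C, 21.6 FPKM with siNT) and rose 1.19-fold in the shRNA clones (47.7 FPKM with shAP2C, 40.1 FPKM with shNT). CENPA, the histone H3 variant of centromeres, was not called in any table, with 20.6 FPKM with siAP2C and 27.9 FPKM with siNT in SKBR3, 19.9 FPKM with siAP2C and 27.7 FPKM with siNT in HCC1954, and 30.0 FPKM in shAP2C clones against 44.0 FPKM in shNT clones. In HCC1954 siRNA, CENPE had 5.15 FPKM with siAP2C and 6.35 FPKM with siNT, CENPF 15.7 FPKM with siAP2C and 19.1 FPKM with siNT, and KIF2C 26.2 FPKM with siAP2C and 29.2 FPKM with siNT.

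Checkpoint genes had the median log2 ratio nearest 0 of the 7 roles in SKBR3, -0.46, and 4 of 5 rose in the shRNA clones, with a median of 0.50. In SKBR3, BUB1, BUB1B and MAD2L1 fell and 0 rose. In HCC1954 siRNA 0 of 5 were called (BUB3 was higher at an unadjusted p under 0.05, by Cuffdiff). BUB1, the kinase that recruits checkpoint proteins, had 6.13 FPKM with siAP2C and 10.3 FPKM with siNT in SKBR3, 22.6 FPKM with siAP2C and 26.2 FPKM with siNT in HCC1954, and 43.6 FPKM in shAP2C clones against 29.4 FPKM in shNT clones. BUB1B, which encodes the checkpoint protein BUBR1, fell 1.46-fold in SKBR3 (9.84 FPKM with siAP2C, 14.3 FPKM with siNT) and rose 1.30-fold in the shRNA clones (48.6 FPKM with shAP2C, 37.5 FPKM with shNT). MAD2L1, the inhibitor of CDC20, fell 1.31-fold in SKBR3 (44.0 FPKM with siAP2C, 57.5 FPKM with siNT) and rose 1.42-fold in the shRNA clones (122 FPKM with shAP2C, 86.3 FPKM with shNT). All 3 genes thus fell in SKBR3 and rose in the shRNA clones. For siRNA in HCC1954, BUB1B had 13.4 FPKM with siAP2C and 14.7 FPKM with siNT, and MAD2L1 had 25.3 FPKM with siAP2C and 29.4 FPKM with siNT.

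BUB3, the binding partner of BUB1 and BUBR1, was called in the shRNA clones alone. It had 27.7 FPKM with siAP2C and 31.7 FPKM with siNT in SKBR3 without a call, 47.6 FPKM with siAP2C and 41.2 FPKM with siNT in HCC1954, and 124 FPKM in shAP2C clones against 64.2 FPKM in shNT clones, a 1.93-fold rise. TTK, the kinase MPS1 that starts checkpoint signalling, was not called in any table. It had summed levels of 5.45 FPKM with siAP2C and 7.48 FPKM with siNT in SKBR3, 9.78 FPKM with siAP2C and 12.5 FPKM with siNT in HCC1954, and 27.4 FPKM in shAP2C clones against 24.2 FPKM in shNT clones. In each table the log2 ratio of its lead transcript had the sign opposite to that of the sum.

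Of the chromosomal passenger complex, which corrects attachments and later marks the midzone, 3 of 3 fell in SKBR3, 0 of 3 were called in HCC1954 siRNA (0 also at an unadjusted p under 0.05, by Cuffdiff), and BIRC5 rose in the shRNA clones. AURKB, its kinase, fell 1.89-fold in SKBR3 (8.28 FPKM with siAP2C, 15.7 FPKM with siNT) and had 70.6 FPKM in shAP2C clones against 59.0 FPKM in shNT clones, not called. BIRC5, which encodes survivin, fell 1.59-fold in SKBR3 (32.9 FPKM with siAP2C, 52.4 FPKM with siNT) and rose 1.66-fold in the shRNA clones (179 FPKM with shAP2C, 108 FPKM with shNT). CDCA8, which encodes borealin, fell 1.38-fold in SKBR3 (13.4 FPKM with siAP2C, 18.4 FPKM with siNT) and had 56.0 FPKM in both shRNA groups. BIRC5 was thus the 1 gene of the 3 called in the shRNA clones. In the HCC1954 siRNA table, AURKB had 23.4 FPKM with siAP2C and 26.4 FPKM with siNT, BIRC5 31.5 FPKM with siAP2C and 35.1 FPKM with siNT, and CDCA8 29.1 FPKM with siAP2C and 29.5 FPKM with siNT.

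Anaphase genes fell in SKBR3 (4 of 4), and 3 of 4 rose in the shRNA clones with a median log2 ratio of 0.90, the highest of the 7 roles. In HCC1954 siRNA 0 of 4 were called (PTTG1 was lower at an unadjusted p under 0.05, by Cuffdiff). CDC20, the APC/C activator, had 22.2 FPKM with siAP2C and 34.9 FPKM with siNT in SKBR3, and 26.1 FPKM with siAP2C and 30.1 FPKM with siNT in HCC1954. In shAP2C clones it had 117 FPKM, against 54.9 FPKM in shNT clones, and its log2 ratio was 1.10 ± 0.15 (standard error). PTTG1, which encodes securin, fell 1.89-fold in SKBR3 (10.6 FPKM with siAP2C, 19.9 FPKM with siNT), had 42.03 FPKM with siAP2C and 56.1 FPKM with siNT in HCC1954, and rose 2.20-fold in the shRNA clones (41.0 FPKM with shAP2C, 18.6 FPKM with shNT). By summed FPKM, CDC20 and PTTG1 had the largest rises of the 42 in the shRNA clones after CCNB1. ESPL1, separase, fell 1.44-fold in SKBR3 (5.78 FPKM with siAP2C, 8.32 FPKM with siNT) and rose 1.63-fold in the shRNA clones (17.9 FPKM with shAP2C, 11.0 FPKM with shNT). UBE2C, the E2 enzyme of the APC/C, fell in SKBR3 (59.9 FPKM with siAP2C, 74.8 FPKM with siNT). In the shRNA clones UBE2C was not called by its lead transcript and had 96.6 FPKM in shAP2C clones against 134 FPKM in shNT clones, while its transcript with the smallest p fell. In the HCC1954 siRNA table, ESPL1 had 4.44 FPKM with siAP2C and 4.41 FPKM with siNT, and UBE2C had 65.3 FPKM with siAP2C and 70.01 FPKM with siNT.

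Cytokinesis genes had the lowest median log2 ratio in SKBR3, -0.78, with 6 of 7 called as falls. In the shRNA clones 4 fell and 1 rose, with a median of -0.20, and the equal upper quartile shift given above is of similar size. PRC1 had 18.9 FPKM with siAP2C and 33.6 FPKM with siNT in SKBR3 and 31.8 FPKM with siAP2C and 43.1 FPKM with siNT in HCC1954. In shAP2C clones it had 74.6 FPKM, against 85.6 FPKM in shNT clones. The log2 ratio of its lead transcript was -0.81 ± 0.26 (standard error) in SKBR3, -0.55 ± 0.38 in HCC1954 siRNA with q = 0.0268 in the authors' deposited table, and -0.19 ± 0.19 in the shRNA clones. PRC1 was the member called as a fall in all 3 tables, and its HCC1954 siRNA call does not hold at q under 0.01.

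ANLN, the scaffold of the contractile ring, fell 1.49-fold in SKBR3 (42.9 FPKM with siAP2C, 64.2 FPKM with siNT) and had 30.6 FPKM with siAP2C and 34.8 FPKM with siNT in HCC1954. In shAP2C clones it had 54.7 FPKM, against 227 FPKM in shNT clones, a 4.14-fold fall. KIF4A, the chromokinesin that works with PRC1, fell 1.75-fold in SKBR3 (3.10 FPKM with siAP2C, 5.43 FPKM with siNT) and 1.40-fold in the shRNA clones (8.95 FPKM with shAP2C, 12.5 FPKM with shNT). KIF20A, a midzone kinesin, fell 1.76-fold in SKBR3 (8.99 FPKM with siAP2C, 15.8 FPKM with siNT) but rose 1.60-fold in the shRNA clones (44.1 FPKM with shAP2C, 27.6 FPKM with shNT). The centralspindlin genes RACGAP1 and KIF23 were called in different tables. RACGAP1 fell 1.72-fold in SKBR3 (18.3 FPKM with siAP2C, 31.4 FPKM with siNT) and was not called in the shRNA clones (58.4 FPKM with shAP2C, 54.1 FPKM with shNT). KIF23 was not called in SKBR3 (15.1 FPKM with siAP2C, 16.6 FPKM with siNT) and fell 1.31-fold in the shRNA clones (34.1 FPKM with shAP2C, 44.7 FPKM with shNT). ECT2, the exchange factor for RhoA that centralspindlin recruits, fell 1.57-fold in SKBR3 (30.5 FPKM with siAP2C, 48.0 FPKM with siNT) and was not called in the shRNA clones (47.1 FPKM with shAP2C, 49.0 FPKM with shNT). In HCC1954 siRNA, KIF4A had 12.0 FPKM with siAP2C and 13.9 FPKM with siNT, and KIF20A had 10.1 FPKM with siAP2C and 13.6 FPKM with siNT. In the same table RACGAP1 had 27.9 FPKM with siAP2C and 32.2 FPKM with siNT, KIF23 23.8 FPKM with siAP2C and 24.1 FPKM with siNT, and ECT2 21.1 FPKM with siAP2C and 24.4 FPKM with siNT.

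Set side by side, 33 genes fell in SKBR3, and of these 15 rose in the shRNA clones (45.5%), 10 fell there with no call in HCC1954 siRNA, and PRC1 fell in all 3. Of the 1838 genes in all that fell in SKBR3 and were tested in the shRNA clones, 40.6% rose and 40.4% fell there, so the rises, and the 11 falls (33.3%), lie near these shares. The 15 hold both B cyclins, CDK1, PLK1, 3 of the 5 checkpoint genes and 3 of the 4 anaphase genes, and the 10 hold 5 of the 8 spindle genes. Across the 42 genes the log2 ratios in SKBR3 and in the shRNA clones had Pearson r = -0.01 and Spearman rho = -0.08, and those of the siRNA tables of the 2 lines had r = 0.39 and rho = 0.29. These are descriptions across genes, which are not independent replicates. Among genes with a promoter, TTTGAA stood in 9 of 14 that fell in SKBR3 and rose in the clones (64.3%) and in 6 of 9 that fell in both, PRC1 included (66.7%). CCAAT stood in 12 of the 14 (85.7%) and in 6 of the 9 (66.7%), with no test of the difference.

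**Figure D4:**
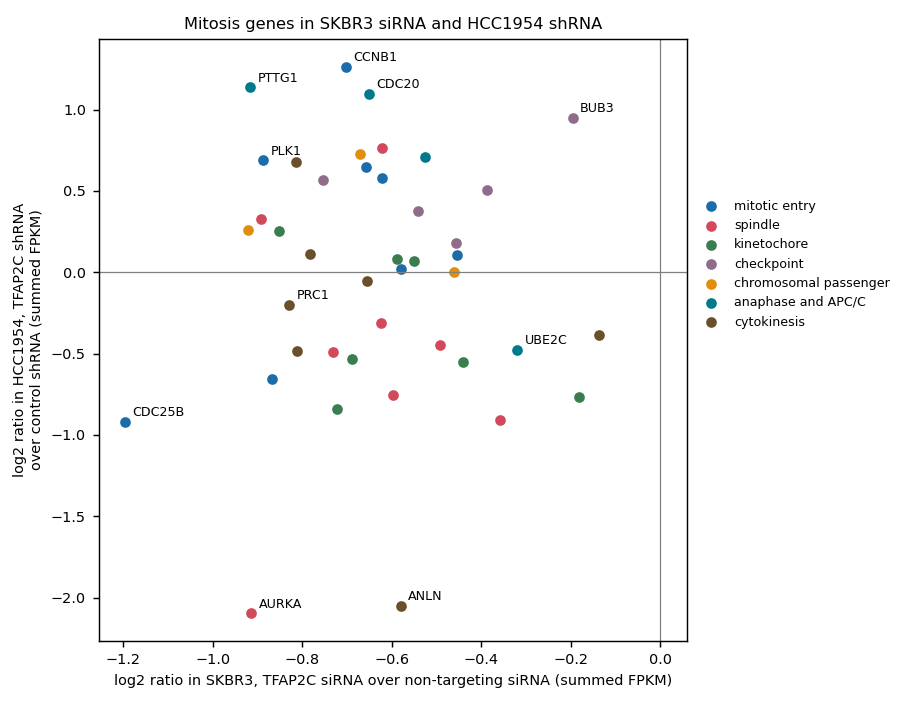
Log2 ratio of summed FPKM in SKBR3 siRNA (x axis) against that in HCC1954 shRNA (y axis) for each of the 42 mitosis genes, coloured by role. All points lie left of 0 on the x axis, and on the y axis they spread from AURKA at -2.10 to CCNB1 at 1.26.

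The difference between the 2 lines was tested for 41 genes as SKBR3 minus HCC1954, from the siRNA log2 ratios and their standard errors, with Benjamini-Hochberg adjustment over 8907 genes. The difference was below 0 for 38 of 41, with a median of -0.45 against -0.09 over all genes. The median over all genes is itself below 0, and the share of all genes below 0 was not counted. By this normal test of the difference 0 of the 41 were called (1 at an unadjusted p under 0.05), beside 0.326% of all genes called above 0 and 0.180% below. PLK1 came nearest, at -0.77 with a 95% interval of -1.50 to -0.05, raw p = 0.0360 and adjusted p = 0.994 from the statistics in the authors' deposited table. KIF11 followed at -0.68 with an interval of -1.49 to 0.13. With these standard errors a difference between the lines was not shown for any of these genes. The intervals of PLK1 and KIF11 still hold differences beyond 1 log2 unit. With standard errors taken from the p-values in the authors' deposited table, ESPL1, KIF11 and PLK1 were called below 0. Beside them, 7.52% of all genes were called below 0 and 4.87% above. Standard errors from p-values are smaller. Under a normal distribution, these p-values call for statistics larger than those listed, by a median factor of 1.99 in SKBR3 and 2.46 in HCC1954 siRNA. The calls between the lines thus depend on the standard error used, and which choice is right was not tested.

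The same test of shRNA minus siRNA within HCC1954 called 3 of 41, 2 above 0 and 1 below. Of 8631 genes, 4.55% were called above 0 and 9.21% below, so the members lie near the first share and under the second. With standard errors taken from the p-values in the authors' deposited table the test called 19 of 41. Of these, 14 were above 0 (PLK1 and PTTG1 among them) and 5 below (ANLN, ASPM, AURKA, KIF11 and NDC80). Of all genes, 20.8% were above and 28.5% below. From the statistics in the authors' deposited table, CCNB1 differed by 1.42 (95% interval 0.64 to 2.20, adjusted p = 0.00483), CDC20 by 1.30 (0.56 to 2.04, adjusted p = 0.00657) and ANLN by -2.18 (-3.59 to -0.78, adjusted p = 0.0216). AURKA had a difference of the same size as ANLN, -2.18, with a wider interval of -4.37 to 0.01 and adjusted p = 0.223 from the statistics in the authors' deposited table. The siRNA and shRNA tables were normalized separately and differ in time, delivery and clonality, and the shAP2C and shNT clones differ in KRT7, ERBB2 and the other markers above. These cannot be told apart here for CCNB1, CDC20 and ANLN.

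Control levels were set side by side, though siNT cells were transfected and shNT clones carry a lentiviral shRNA, so neither is an untreated level. In siNT cells the ratio of SKBR3 over HCC1954 had a median of 0.975 over the 42 genes, 20 of them above 1, and log2 levels correlated across genes with r = 0.79. CCNA2 (43.1 FPKM in SKBR3, 14.3 FPKM in HCC1954) and CDK1 (110.3 FPKM in SKBR3, 38.6 FPKM in HCC1954) stood highest in SKBR3 relative to HCC1954, and NDC80 (3.96 FPKM in SKBR3, 19.5 FPKM in HCC1954) and PTTG1 (19.9 FPKM in SKBR3, 56.1 FPKM in HCC1954) lowest. shNT clones had higher levels than siNT cells of HCC1954 for 38 of 42, with a median ratio of 2.02, and PTTG1 was lower (18.6 FPKM in shNT, 56.1 FPKM in siNT). SPC25 (46.8 FPKM in shNT, 6.66 FPKM in siNT) and ANLN (227 FPKM in shNT, 34.8 FPKM in siNT) had the largest such ratios. These levels come from separately normalized tables and have no test. The same ratios were not taken over all genes, so the higher shNT levels are not shown to be particular to the 42.

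In the shRNA clones, changes of some members ran with those of genes beside them, and changes of others ran against them. Neighbour counts here stand beside 39.2% of all genes falling and 36.3% rising in these clones. Within 1 Mb on either side of AURKA, at chr20:54944445-54967393 (GRCh37), 6 of 7 neighbouring genes tested fell, with a median log2 ratio of -1.51. TFAP2C, the targeted gene, lies at chr20:55204362-55214339 and is 1 of the 6. Without it 5 of 6 neighbours fell, with a median of -1.25. Around CDC25B, also on chromosome 20, 16 of 17 neighbours fell (median -1.13). Around CCNB1 7 of 12 rose (median 0.96), around BUB3 3 of 5 (1.02) and around KIF20A 9 of 11 (0.76). ANLN had 3 tested neighbours, of which 2 fell, and PTTG1 had 5, of which 0 were called. In the other direction, MAD2L1 rose while 3 of 3 neighbours fell (median -1.12), and DLGAP5 rose while 6 of 13 fell (-0.77). TACC3 fell while 11 of 19 neighbours rose (0.51), and KIF23 fell while 3 of 4 rose (1.27). Over the 38 members with at least 3 tested neighbours, the member's log2 ratio and the median of its neighbours had r = 0.33 and rho = 0.39, with some neighbours shared, as between KIF20A and CDC25C. The median around AURKA was -0.04 with siRNA in HCC1954 and -0.39 in SKBR3. The part of neighbouring genes in these values was not tested.

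**Figure D5:**
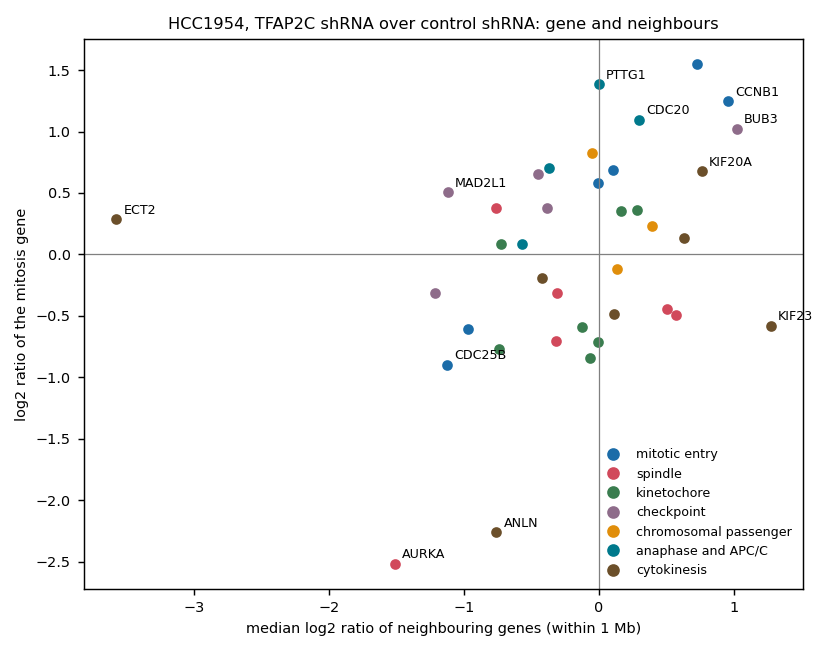
Median log2 ratio of neighbouring genes within 1 Mb in HCC1954 shRNA (x axis) against the log2 ratio of the mitosis gene's lead transcript (y axis), for the 38 genes with at least 3 tested neighbours. AURKA and CDC25B lie low on both axes, CCNB1 and BUB3 high on both, and ECT2 with a neighbour median of -3.58 and KIF23 lie away from any line.

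A wider list of 81 mitosis genes, not members, was set beside the 42. Like the members, it was chosen with earlier results of these data known, so it is no independent check. Its counts stand beside 21.0% of all genes falling and 12.3% rising in SKBR3, and 39.2% falling and 36.3% rising in the shRNA clones. In SKBR3 49 of 73 tested fell and 0 rose (0 also at an unadjusted p under 0.05, by Cuffdiff), with a median log2 ratio of -0.56. In HCC1954 siRNA 0 of 77 were called, beside 0.965% of all genes falling and 2.31% rising, with a median of -0.11. At an unadjusted p under 0.05, by Cuffdiff, 9 of the 77 were lower and 0 higher, beside 5.24% and 8.12% of all genes. In the shRNA clones 39 fell and 15 rose of 76, with a median of -0.26. Condensin and chromosome structure genes fell in 12 of 14 in SKBR3 and in 8 of 14 in the shRNA clones, where 3 rose. Further kinetochore genes fell in 12 of 20 in SKBR3 and in 14 of 21 in the shRNA clones, and 0 of them rose in either table (0 also at an unadjusted p under 0.05, by Cuffdiff). Further spindle genes fell in 15 of 17 in SKBR3, and 6 fell and 5 rose of 19 in the shRNA clones. Further entry, exit and checkpoint genes fell in 10 of 22 in SKBR3, and 11 fell and 7 rose of 22 in the shRNA clones, near the shares of all genes. In SKBR3 PKMYT1, the kinase that inhibits CDK1, had 20.9 FPKM with siAP2C and 44.2 FPKM with siNT. TRIP13, an ATPase that remodels MAD2, had 31.3 FPKM in shAP2C clones against 560 FPKM in shNT clones, and KIF18A, a kinesin of chromosome alignment, had 23.6 FPKM in shAP2C clones against 8.48 FPKM in shNT clones. KIF18A rose in the shRNA clones while TRIP13 fell.

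Transcripts limit some of these values. Of the 42 genes, 15 had 1 RefSeq transcript in the tables and 27 had more, up to 14 for ECT2. The lead transcript, chosen over the 6 groups, could be a minor one in a single comparison. In HCC1954 siRNA it held 11.4% of the summed siNT FPKM for CDC25B and 6.56% for FOXM1. With siNT there it had 5.30 of 53.6 FPKM for NUSAP1 and 4.20 of 26.4 FPKM for AURKB. The missing calls and the differences of these genes in HCC1954 siRNA rest on such transcripts. The sign of the lead transcript differed from that of the sum for TTK in SKBR3, for FOXM1, NUSAP1, TTK, AURKB and UBE2C in HCC1954 siRNA, and for TTK, UBE2C and ECT2 in the shRNA clones. Exons of 12 members overlap another gene of at least 1 FPKM (CCNA2 with EXOSC9, CDC25C with FAM53C, FOXM1 with ITFG2, NUSAP1 with OIP5 and OIP5-AS1, HMMR with HMMR-AS1, TACC3 with TMEM129, CENPA with SLC35F6, BUB1B with BUB1B-PAK6 and PAK6, KIF4A with PDZD11, KIF20A with BRD8 and CDC23, KIF23 with KIF23-AS1, and ANLN with MATCAP2). Whether strand was used in counting is not stated in the labels, so their reads could not be told apart in such stretches.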

How the data were processed

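Messenger RNA was sequenced with TruSeq libraries, per the labels' protocols, in 6 groups of 3 samples used here. Reads were processed with Bowtie 0.12.2 and Cuffdiff (version not given in the sources used here) on hg19, per the submitters' processing notes. The deposited Cuffdiff tables hold FPKM per group, pooled by the authors over 3 samples, and, as deposited, a test statistic (a score), a p-value and a q-value for each of 66321 RefSeq accessions. The line of the HCC1954 siRNA table follows from its file name and from elimination, since its columns name only the siRNA.

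Accessions were mapped to symbols (65468 matched, 853 did not), and FPKM were summed per symbol for levels, with no test. The lead transcript is the accession whose FPKM, averaged over the 6 groups, was highest. It carried the call, q under 0.05 as deposited with the test completed. Deposited q-values matched, within a relative gap of 4.97e-06, a Benjamini-Hochberg adjustment over the accessions with a completed test in each table (15184 in SKBR3 siRNA, 17940 in HCC1954 siRNA and 13559 in HCC1954 shRNA). Standard errors are the log2 ratio over the deposited statistic, and differences between tables were tested as a two-sided normal z with Benjamini-Hochberg adjustment over all genes. The difference test was also run on simulated ratios, drawn from normal distributions with the same standard errors. Such a simulation cannot show whether those standard errors are right. Members and gene lists were chosen with earlier results of these data known. Named genes were all 42 members, with full values for those called in 2 or more comparisons or with the largest ratios, and up to 4 called genes of the wider lists per direction. Gene coordinates and exon overlaps come from GENCODE on GRCh37, neighbours from the loci in the deposited tables (hg19), and promoters from RefSeq. Alternatives covered the accession that stands for a gene, the threshold, low values, the set adjusted over, pseudocounts, scaling and the standard error. Read depth per sample is unknown, so no interval from counts could be given. Analyses used Python 3.11.15, pandas 2.3.3, numpy 2.4.6, scipy 1.17.1 and matplotlib 3.10.9.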

Additional observations from a re-analysis of the deposited data

Results flagged for a closer look

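The change of 3 mitosis genes differed between the stable shRNA and the transient siRNA in HCC1954, by the normal test of the difference with Benjamini-Hochberg adjustment over 8631 genes. CCNB1 differed by 1.42 on the log2 scale, with 176 FPKM in shAP2C clones against 73.4 FPKM in shNT clones, and 43.4 FPKM with siAP2C against 52.1 FPKM with siNT. CDC20 differed by 1.30, with 117 FPKM in shAP2C clones against 54.9 FPKM in shNT clones, and 26.1 FPKM with siAP2C against 30.1 FPKM with siNT. ANLN differed by -2.18, with 54.7 FPKM in shAP2C clones against 227 FPKM in shNT clones, and 30.6 FPKM with siAP2C against 34.8 FPKM with siNT. Over all genes 4.55% were called above 0 and 9.21% below in the same test. Of the 41 members compared, 2 were called above 0 and 1 below, near the first share and under the second. The neighbours of CCNB1 within 1 Mb had a median log2 ratio of 0.96 in the shRNA clones, those of CDC20 0.29 and those of ANLN -0.76, and their part in these differences was not tested.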

How the results depend on the processing

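No paired analysis was possible because the tables pool the 3 samples of each group, and leaving out a replicate was not run for the same reason. At q under 0.01 the count of falls in HCC1954 siRNA was 0, against 1 (PRC1). At the same threshold SKBR3 had 30 falls, without DLGAP5, CDCA8 and RACGAP1, and HCC1954 shRNA had 14 falls and 15 rises, without CDK1, CDC25C and CENPF. In the other alternatives SKBR3 had 33 to 35 falls and 0 rises. With standard errors from the deposited p, the differences called were 3 between the lines and 19 between shRNA and siRNA, beside 20.8% and 28.5% of all genes called above and below 0 in the second. The cause was not tested. The median log2 ratio in SKBR3 was -0.58 with a pseudocount of 1 FPKM, -0.63 with 0.1 FPKM, -0.56 centred on all genes, -0.57 at equal upper quartile and -0.69 by lead transcript. In HCC1954 siRNA it was -0.20 with 1 FPKM and -0.20 centred. In HCC1954 shRNA it was 0.073 with 1 FPKM, 0.20 at equal upper quartile and 0.10 by lead transcript.

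The sign turned for genes not called by their lead transcript. With the transcript highest in the same table, HCC1954 siRNA gave FOXM1 -0.74, NUSAP1 -0.39, TTK -1.11, AURKB -0.048 and KIF23 0.34. With the transcript of smallest p it gave NUSAP1 -4.77, KIF2C 1.21, TTK -1.11, AURKB -1.57, CDCA8 0.60, UBE2C -0.36 and ANLN 1.61, SKBR3 gave TTK -1.88, and HCC1954 shRNA gave TTK 1.47 and UBE2C -2.18. UBE2C then fell (adjusted p = 0.0416 from the authors' deposited p), as did FOXM1 in HCC1954 shRNA (-2.51) and NUSAP1 (-0.53) and HMMR (-1.10) in SKBR3. Pooled values with no sample spread or read depth limit all of these results.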
